A study of Homo sapiens with 15 samples.

Results

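Hemoglobin genes were examined across all doses of the series: the 5 alpha-like globins HBZ, HBM, HBA2, HBA1 and HBQ1 and the 5 beta-like globins HBE1, HBG2, HBG1, HBD and HBB. These 10 genes were chosen by name, with earlier results of these data known, and were found among 60649 genes of the raw count table by their Ensembl identifiers. The data are poly(A) mRNA sequencing of K562, a BCR-ABL-positive cell line established from chronic myeloid leukemia. Of 15 libraries, 3 came from untreated cells and 3 each from cells given martinostat, an inhibitor of histone deacetylases, for 24 h at a dose of 0.15 µM, 0.25 µM, 0.5 µM or 1 µM. The labels name no vehicle for the untreated cells, every group is the same single cell line, and the 3 libraries of a group are given as biological replicates.

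Hemoglobin is a tetramer of alpha-like and beta-like chains, each holding a heme group. The alpha-like genes lie in order of their use in development on the short arm of chromosome 16 (zeta in the embryo, then alpha), and the beta-like genes on the short arm of chromosome 11 (epsilon in the embryo, gamma in the fetus, then delta and beta in the adult). Distant enhancers, bound by GATA1, KLF1 and other erythroid factors, drive both clusters. K562 cells are known for embryonic and fetal globin and for little adult beta globin, and inhibitors of histone deacetylases are known as inducers of fetal globin in some erythroid cells.

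The genes sit at the following places in hg38 (GENCODE release 44). On the plus strand of chromosome 16 lie HBZ (142728 to 154503), HBM (153892 to 166764), HBA2 (172876 to 173710), HBA1 (176680 to 177522) and HBQ1 (180459 to 181179). On the minus strand of chromosome 11 lie HBB (5225464 to 5229395), HBD (5232678 to 5243657), HBG1 (5248269 to 5249857), HBG2 (5253188 to 5505605) and HBE1 (5268345 to 5505652). The spans of HBG2, HBE1, HBD, HBM and HBZ reach well past the classical gene because the annotation holds longer transcripts.

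Some of these genes cannot be told from a neighbor or a copy by short fragments, and this bears on each value below. HBA1 and HBA2 encode the same protein, and their 426-base coding sequences differ at 0 bases. The coding sequences of HBG1 and HBG2 (441 bases) differ at 2, C227T and C410G, counted from the A of the start codon with the HBG1 base first. The second one sets the alanine of A-gamma against the glycine of G-gamma. Both sites are shown because only fragments that span them, or the less similar ends of the transcripts, separate the fetal genes. Capitals mark the base that differs.
HBG1 at 227: tgggagatgccaCaaagcacctgga
HBG2 at 227: tgggagatgccaTaaagcacctgga
HBG1 at 410: agatggtgactgCagtggccagtgc
HBG2 at 410: agatggtgactgGagtggccagtgc

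Of all 100-base windows of the canonical transcript, 79.7% for HBA1 and 79.9% for HBA2 were present word for word in the other copy, and 53.9% for HBG1 and 54.0% for HBG2. A second limit was the overlap of annotated genes, since the counting tool by default leaves uncounted the fragments that fall on exons of more than one gene. For HBE1 only 53 of 623 bases of the canonical transcript, or 8.51%, lay under no other gene. The readthrough gene ENSG00000239920 covered 81.3% of its exon bases and itself held only 3 to 73 counts in a library. The share of bases free of other genes was 26.5% for HBG2, 62.9% for HBG1, 74.3% for HBZ and 100% for the other 6 genes. Another readthrough gene, ENSG00000284931, covers part of HBG1 and HBG2 and had 0 counts in all 15 libraries. HBG2 itself held 2930 to 10245 counts in a library. Fragments on the exons that HBG2 shares with ENSG00000284931 were thus not counted for both genes, if the counting used these exons. Whether such fragments were left out or given to a single gene is not given in the sources used here. Levels are therefore compared between HBE1, HBG2, HBG1, HBZ and other genes only with the length used, all bases or free bases, named.

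**Figure D1:**
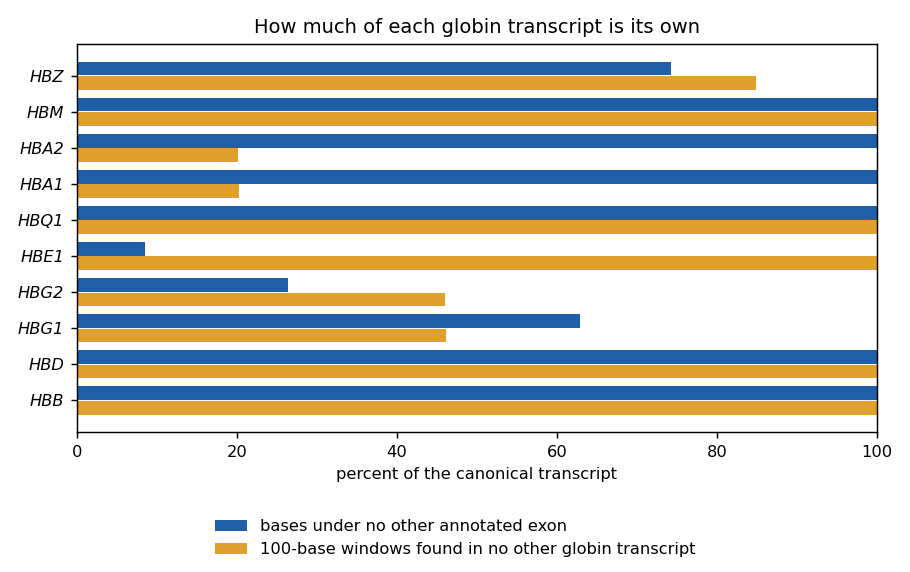
Share of each canonical globin transcript (x axis, percent) that lies under no exon of another annotated gene (blue) and share of its 100-base windows that no other globin transcript holds (orange), one pair of bars per gene. HBE1 is the gene with the least sequence free of other genes (8.51%), and HBA1 and HBA2 share most of their windows.

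The libraries held 23755510 to 32805574 assigned counts. Values below are CPM, the usual unit for a gene's counts relative to the size of its library, after TMM scaling, which equalizes libraries on the bulk of their genes, and tests are edgeR quasi-likelihood tests over 23711 genes with Benjamini-Hochberg adjustment, called at an adjusted p below 0.05. Treatment moved much of the transcriptome: 51.2%, 62.2%, 66.9% and 66.2% of all tested genes were called at the 4 doses from lowest to highest, and the median over those genes was a log2 fold change of 0.28, 0.32, 0.34 and 0.32. The third replicates at 0.25 and 0.5 µM stood apart from the rest on the third principal component (scores of 54.1 and 58.5, against -29.0 to 10.6 in the other 13 libraries), and the calls, sums and shares at these doses are also given without them. The labelled cell type was checked with 6 erythroid markers, whose summed level was 2058 to 2269 CPM in untreated libraries and 475 to 584 CPM at 1 µM, with all 6 lower there. Megakaryocytic markers (2 of 4 tested, both higher) summed to 4.74 to 5.13 CPM untreated and 32.3 to 35.7 CPM at 1 µM. Of those, PF4 and GP9 had 0 counts in untreated cells. Granulocytic and monocytic markers (3 of 4 tested, LYZ lower, CD14 and MPO higher) summed to 6.87 to 8.78 CPM untreated and 2.66 to 3.69 CPM at 1 µM, with MPO and ELANE at 0 counts in untreated cells. Lymphoid markers (4 of 5 tested, 1 higher and 1 lower) summed to 5.79 to 9.27 and 10.0 to 13.2 CPM, with MS4A1 at 0 counts in untreated cells. Their part in the globin results was not tested, and fewer hemoglobin-making cells cannot be told apart from less globin mRNA per cell.

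At the 2 higher doses most of the tested globin genes, from both clusters, were lower than in untreated cells. Of the 10 genes, 9 passed the filter on low counts, and HBM, the mu globin gene, did not (0 to 8 counts in a library). Of those 9, 2 were lower and 0 higher at 0.15 µM (HBZ and HBD), against 19.4% of all genes lower and 31.9% higher. At 0.25 µM 4 were lower and 0 higher (HBZ, HBA1, HBQ1 and HBD; background 24.8% lower and 37.4% higher). At 0.5 µM 6 were lower and 0 higher (HBZ, HBG2, HBA1, HBQ1, HBD and HBB; background 27.6% lower and 39.4% higher). At 1 µM the same 6 genes were lower and HBE1 was higher (background 27.5% lower and 38.8% higher). The median log2 fold change of the 9 genes was -0.57, -0.74, -1.75 and -1.72 from the lowest dose to the highest, below the median of all genes at each dose. With the third replicates at 0.25 and 0.5 µM left out of the fit, the genes called lower numbered 3, 3, 6 and 6, and the log2 fold change of HBZ was -2.37 at 0.25 µM and -3.55 at 0.5 µM. The share of all genes called in that fit is not given, so these counts stand without a background. With every dose compared to the same 3 untreated libraries, these 4 comparisons are not independent.

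The 0 genes called higher at 0.15, 0.25 and 0.5 µM by edgeR had 0, 0 and 1 gene at an unadjusted p below 0.05. DESeq2 called 0, 0 and 1, and limma on the deposited FPKM values called 1, 0 and 0.

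**Figure D2:**
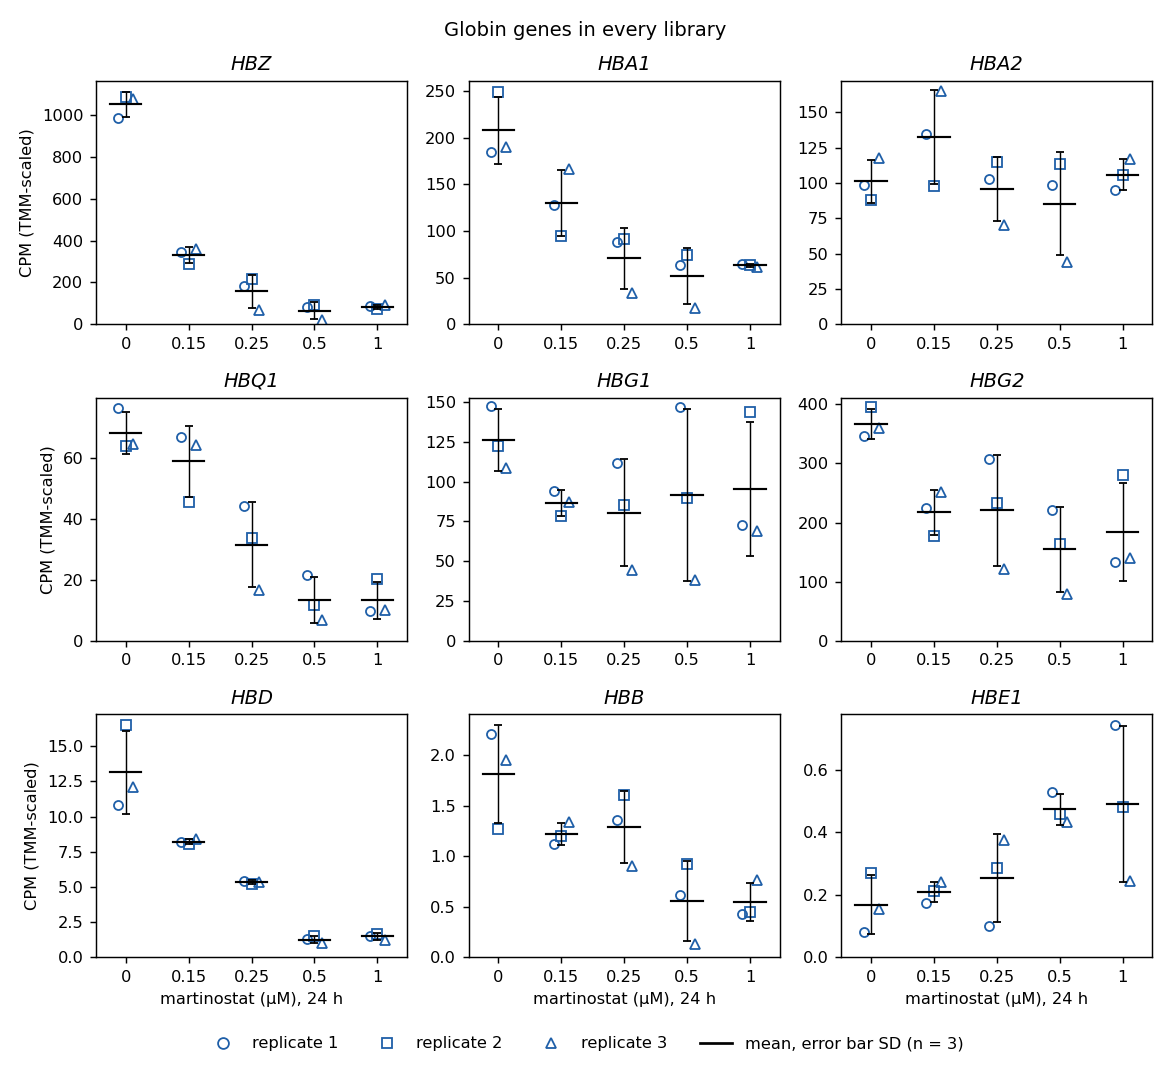
TMM-scaled CPM (y axis, each panel with its own linear scale from 0) of the 9 tested globin genes against martinostat dose (x axis), one point per library with the symbol giving the replicate number, a line for the mean and a bar for the SD of 3 libraries. HBZ drops from about 1051 to 84.1 CPM, HBA2 stays between means of 85.3 and 132 CPM, and the triangles at 0.25 and 0.5 µM are the lowest points of their group in most panels.

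HBZ, which encodes the embryonic zeta chain, was the most abundant globin gene of untreated cells per kilobase of transcript, though not per kilobase of free bases, and had the largest fold change of the 9 tested. Its level was 985, 1089 and 1079.6 CPM in the untreated libraries, 346, 287 and 362 CPM at 0.15 µM, 185, 216 and 68.2 CPM at 0.25 µM, then 81.5, 92.8 and 20.7 CPM at 0.5 µM and 85.0, 74.0 and 93.3 CPM at 1 µM. No treated library overlapped the untreated ones, and the third libraries at 0.25 and 0.5 µM were the lowest of their groups. The log2 fold change was -1.66 ± 0.47 (SE) at 0.15 µM, -2.75 ± 0.49 at 0.25 µM, then -4.02 ± 0.51 at 0.5 µM and -3.64 ± 0.51 at 1 µM, with edgeR adjusted p of 0.0092, 0.00026, 1.2e-05 and 2.6e-05. At 0.5 µM the mean CPM was 16.2 times lower than in untreated cells. HBZ was called lower at all 4 doses under every alternative tried, with its log2 fold change at 1 µM between -3.73 and -3.13.

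The adult alpha genes, which give rise to one and the same chain, parted from each other. HBA1 was at 184, 249 and 190 CPM without the drug, 128, 95.0 and 167 CPM at 0.15 µM, 87.6, 91.4 and 33 CPM at 0.25 µM, 63.5, 73.7 and 17.7 CPM at 0.5 µM and 64.5, 63.7 and 61.5 CPM at 1 µM. It fell by 1.56 ± 0.46 (SE) on the log2 scale at 0.25 µM, 2.01 ± 0.47 at 0.5 µM and 1.72 ± 0.46 at 1 µM (edgeR adjusted p of 0.010, 0.0019 and 0.0053), with no overlap between treated and untreated libraries. At 0.15 µM its libraries did not overlap either, but its log2 fold change of -0.68 ± 0.45 was not called (adjusted p = 0.23). HBA1 was called lower at that dose by edgeR without the third replicates at 0.25 and 0.5 µM (-0.67, adjusted p = 0.00090). The same held with only the libraries compared (-0.65, adjusted p = 0.0022).

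HBA2 was at 98.2, 87.7 and 118 CPM without the drug, 135, 97.8 and 165 CPM at 0.15 µM, 103, 114 and 70.5 CPM at 0.25 µM, 98.5, 114 and 44 CPM at 0.5 µM and 95.2, 106 and 117 CPM at 1 µM. Its groups overlapped at every dose and it was called at none, with log2 fold changes of 0.39 ± 0.28, -0.08 ± 0.28, -0.25 ± 0.28 and 0.07 ± 0.28 (edgeR adjusted p of 0.27, 0.83, 0.46 and 0.85). Its direction turned with the scaling: by library totals the log2 fold change was 0.74 at 0.15 µM (adjusted p = 0.0091, called higher), 0.43 at 0.25 µM and 0.07 at 0.5 µM. With TMM scaling, edgeR called HBA2 higher at 0.15 µM with only the libraries compared (0.42, adjusted p = 0.026). The same held without the third replicates at 0.25 and 0.5 µM (0.39, adjusted p = 0.032).

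The balance between the alpha copies, which does not depend on scaling, moved accordingly. HBA2 made up 33% ± 6.3 (SD, n = 3) of the counts of both copies in untreated cells, with libraries from 26.0% to 38.2%. The share was 50.6% ± 0.78 at 0.15 µM, 59.2% ± 7.7 at 0.25 µM, then 64.3% ± 6.1 at 0.5 µM and 62.5% ± 2.9 at 1 µM. Every treated library exceeded every untreated one. A two-sided exact permutation test gave p = 0.1 for each dose, the smallest that 3 against 3 libraries allow (adjusted p = 0.129 over 36 tests). Over the 5 groups together, an exact permutation test on the F statistic, with 1401400 ways to divide 15 libraries, gave p = 0.00064 (adjusted p = 0.0011 over 9 measures). Each test over the 5 groups, here and below, treats the 15 libraries as exchangeable. It takes no account of libraries of the same number deviating together at 0.25 and 0.5 µM. How the aligner and counter assigned fragments common to both copies is not given in the sources used here, so the percentages describe assigned fragments.

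Summed over both copies, alpha globin was at 309 ± 27.3 CPM without the drug, 262 ± 69.3 at 0.15 µM, 167 ± 55.2 at 0.25 µM, then 137 ± 66.4 at 0.5 µM and 169 ± 9.26 at 1 µM (SD, n = 3). The sum was called lower at 0.25, 0.5 and 1 µM, with log2 fold changes of -0.89 ± 0.33, -1.18 ± 0.34 and -0.87 ± 0.33 (SE; edgeR adjusted p of 0.031, 0.0063 and 0.032). Without the third replicates at 0.25 and 0.5 µM it was -0.62, -0.79 and -0.83 and still called, as was HBA1 at 0.25 µM (-1.19) and 0.5 µM (-1.56). The call of the sum at 0.25 µM was lost by library totals (-0.40, adjusted p = 0.19) and without untreated replicate 2 (-0.83) or 3 (-0.90) or replicate 3 at that dose alone (-0.62). At 1 µM it was lost by library totals (-0.52, adjusted p = 0.087) and without untreated replicate 2 (-0.81) or 3 (-0.88) or replicate 1 (-0.83), 2 (-0.87) or 3 (-0.91) of that dose.

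HBQ1, the theta globin gene at the end of the alpha cluster, whose product has no settled role, was at 76.3, 63.9 and 64.6 CPM in untreated libraries. It was at 66.8, 45.5 and 64.4 CPM at 0.15 µM, 44.3, 33.7 and 16.8 CPM at 0.25 µM, 21.7, 11.8 and 6.68 CPM at 0.5 µM and 9.71, 20.2 and 10.00 CPM at 1 µM. The untreated libraries overlapped only with those at 0.15 µM. Its log2 fold change was -0.21 ± 0.41 at 0.15 µM (not called), -1.11 ± 0.42 at 0.25 µM, -2.36 ± 0.44 at 0.5 µM and -2.36 ± 0.44 at 1 µM (SE; edgeR adjusted p of 0.70, 0.034, 0.00034 and 0.00034). The call at 0.25 µM was lost without replicate 1, 2 or 3 of the untreated cells, or without replicate 2 or 3 at 0.25 µM, with log2 fold changes of -1.03, -1.16, -1.15, -1.17 and -0.78. It was also lost by library totals (-0.62, adjusted p = 0.13) and without the third replicates at 0.25 and 0.5 µM (-0.78, adjusted p = 0.092).

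**Figure D3:**
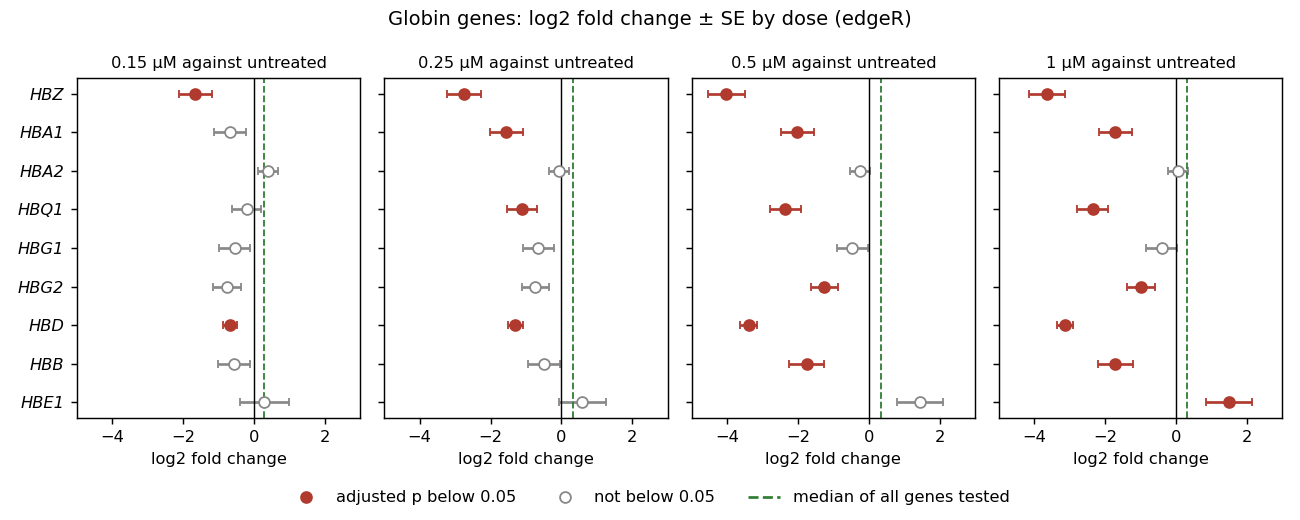
Log2 fold change with its SE (x axis, edgeR) of the 9 tested globin genes at each dose against untreated cells, with filled red points for an adjusted p below 0.05, open gray points otherwise, and a dashed green line at the median of all tested genes. HBZ and HBD lie farthest to the left at 0.5 and 1 µM, HBA2 stays within 1 SE of 0 at 0.25, 0.5 and 1 µM, and HBE1 lies farthest to the right at 0.25, 0.5 and 1 µM.

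The fetal gamma genes had the highest counts of the beta-like globins, per kilobase of all or of free bases. HBG2 was at 346, 395 and 360 CPM without the drug, 224, 177 and 251 CPM at 0.15 µM, 308, 233 and 121 CPM at 0.25 µM, 221, 163 and 79.6 CPM at 0.5 µM and 134, 280 and 139 CPM at 1 µM. All treated libraries lay below all untreated ones, with replicate 2 at 1 µM far above its 2 partners. The log2 fold change was -0.76 ± 0.39, -0.74 ± 0.39, -1.25 ± 0.39 and -0.99 ± 0.39 (SE) from the lowest to the highest dose (edgeR adjusted p of 0.12, 0.11, 0.012 and 0.036). With only the libraries compared, edgeR called HBG2 lower at 0.15 µM (-0.73, adjusted p = 5.3e-05) and 0.25 µM (-0.67, adjusted p = 0.037). DESeq2 called it lower at 0.15 µM (-0.80, adjusted p = 0.043), and edgeR at 0.25 µM without replicate 1 of that dose (-1.06, adjusted p = 0.047). The call at 0.5 µM was lost without replicate 3 at that dose (-0.94, adjusted p = 0.051). The call at 1 µM was lost without replicate 1 (-0.81) or 3 (-0.83) of that dose and without untreated replicate 1 (-1.04), 2 (-0.94) or 3 (-1.01), whereas without replicate 2 at 1 µM it was -1.43 (adjusted p = 0.0056). Library totals (-0.64, adjusted p = 0.094) and limma on FPKM (-0.33, adjusted p = 0.094) did not call it at 1 µM either.

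HBG1 was at 147, 122 and 109 CPM without the drug, 94.1, 78.3 and 87.1 CPM at 0.15 µM, 111, 85.3 and 44.7 CPM at 0.25 µM, 147, 89.5 and 38.4 CPM at 0.5 µM and 72.7, 144 and 69.0 CPM at 1 µM. Only at 0.15 µM did its groups not overlap. The fit of all 15 libraries called it at no dose, with log2 fold changes of -0.54 ± 0.43, -0.65 ± 0.44, -0.46 ± 0.43 and -0.41 ± 0.43 (SE). With only the libraries compared, edgeR called HBG1 lower at 0.15 µM (-0.52, adjusted p = 0.0016). Summed, the gamma genes were at 493 ± 24.4 CPM untreated, 304 ± 43.5 at 0.15 µM, 301 ± 127 at 0.25 µM, then 246 ± 125 at 0.5 µM and 279.6 ± 125 at 1 µM (SD, n = 3). In the fit of all 15 libraries the sum was called lower only at 0.5 µM (log2 fold change -1.0 ± 0.40, edgeR adjusted p = 0.039) and had an adjusted p of 0.085 at 1 µM. With only the libraries compared, edgeR also called the sum lower at 0.15 µM (-0.67, adjusted p = 6.9e-05) and 0.25 µM (-0.65, adjusted p = 0.042). The call at 0.5 µM was lost without the third replicates (-0.63, adjusted p = 0.13), by library totals (-0.69), and without untreated replicate 1 (-1.01), 2 (-0.97) or 3 (-1.04) or replicate 2 (-1.03) or 3 (-0.67) of that dose. At 1 µM the sum was called with the replicate block (-0.85, adjusted p = 0.037), without the third replicates (-0.77) and without replicate 2 of that dose (-1.25). At no dose was either gamma gene or their sum called higher.

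The G-gamma share of assigned counts moved less than the HBA2 share. It is not corrected for countable sequence: 26.5% of HBG2 and 62.9% of HBG1 lay under no other gene. Per kilobase of these free bases, HBG2 was at 2369 ± 163 CPM and HBG1 at 342 ± 52.7 CPM in untreated cells (SD, n = 3). HBG2 made up 74.5% ± 3.7 (SD, n = 3) of the counts of both gamma genes in untreated cells, 71.3% ± 2.6 at 0.15 µM, 73.2% ± 0.18 at 0.25 µM, then 64.0% ± 3.7 at 0.5 µM and 65.9% ± 1.1 at 1 µM. The libraries at 0.5 and 1 µM did not overlap with the untreated ones (two-sided exact permutation p = 0.1 each), and those at 0.15 and 0.25 µM did. The exact permutation test over the 5 groups gave p = 0.0022 (adjusted p = 0.0028).

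HBD, which encodes the delta chain of hemoglobin A2, had the smallest standard error of the 9 tested genes at every dose. It was at 10.8, 16.5 and 12.1 CPM without the drug, 8.18, 8.04 and 8.42 CPM at 0.15 µM, 5.45, 5.18 and 5.35 CPM at 0.25 µM, 1.28, 1.5 and 1.00 CPM at 0.5 µM and 1.52, 1.69 and 1.25 CPM at 1 µM. No 2 of the first 4 groups overlapped, and the third libraries at 0.25 and 0.5 µM did not stand apart here. The log2 fold change was -0.68 ± 0.21, -1.30 ± 0.21, -3.39 ± 0.24 and -3.14 ± 0.23 (SE; edgeR adjusted p of 0.010, 2.9e-05, 3.9e-10 and 8.3e-10), and at 0.5 µM the mean CPM was 10.4 times lower than untreated. The call at 0.15 µM was lost without untreated replicate 2 (-0.48, adjusted p = 0.092) and by library totals (-0.32, adjusted p = 0.23).

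HBB, the adult beta globin gene, was near the floor of the data, with 33 to 54 counts in each untreated library. It was at 2.21, 1.27 and 1.96 CPM untreated, 1.12, 1.2 and 1.34 CPM at 0.15 µM, 1.35, 1.61 and 0.900 CPM at 0.25 µM, 0.618, 0.919 and 0.136 CPM at 0.5 µM and 0.425, 0.448 and 0.766 CPM at 1 µM. The libraries at 0.5 and 1 µM lay below all untreated ones. It fell by 1.75 ± 0.49 at 0.5 µM and by 1.72 ± 0.49 at 1 µM on the log2 scale (SE; edgeR adjusted p of 0.0044 and 0.0045) and was not called at the lower doses (-0.57 ± 0.46 and -0.50 ± 0.46).

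HBE1, the embryonic epsilon gene and the one whose transcript is mostly shared with a readthrough gene, had 2, 7 and 4 counts in the untreated libraries, 5, 6 and 7 at 0.15 µM, 3, 8 and 15 at 0.25 µM, 12, 11 and 16 at 0.5 µM and 21, 14 and 7 at 1 µM. Treated and untreated libraries overlapped at 1 µM but not at 0.5 µM. Its log2 fold change was 0.29 ± 0.69, 0.59 ± 0.67, 1.45 ± 0.65 and 1.5 ± 0.65 (SE; edgeR adjusted p of 0.75, 0.46, 0.057 and 0.049), so that it passed the threshold at the highest dose alone. That call was lost without untreated replicate 1 (1.18) or 3 (1.44) and without replicate 1 (1.07) or 2 (1.51) at 1 µM. With at most 21 counts in a library, and 8.51% of its transcript free of other genes, these counts are a poor measure of epsilon globin mRNA.

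The order of levels, per kilobase of canonical transcript, changed with treatment. In untreated cells the order was HBZ (1317 ± 72.4 CPM per kilobase), HBG2 (627 ± 43.1), HBA1 (360.4 ± 62.1), HBG1 (215 ± 33.1), HBA2 (176 ± 26.4), HBQ1 (129 ± 13.2), HBD (21.2 ± 4.77), HBB (2.88 ± 0.77), HBE1 (0.27 ± 0.15) and HBM (0.13 ± 0.048; SD, n = 3). Of these neighbors, HBG1 and HBA2, and HBE1 and HBM, overlapped between libraries. At 1 µM the order was HBG2 (315 ± 142 CPM per kilobase), HBA2 (184 ± 18.6), HBG1 (162 ± 71.8), HBA1 (109.6 ± 2.62), HBZ (105 ± 12.1), HBQ1 (25.2 ± 11.3), HBD (2.40 ± 0.36), HBB (0.87 ± 0.30), HBE1 (0.79 ± 0.40) and HBM (0.19 ± 0.33). There HBA2 overlapped with HBG1, HBA1 with HBZ, HBB with HBE1 and HBE1 with HBM. Per kilobase of bases free of other genes, HBG2 (2369 ± 163) came before HBZ (1772 ± 97.4) in untreated cells and HBE1 (3.20 ± 1.79) was level with HBB, with overlapping libraries. At 1 µM HBG1 (258 ± 114) then came before HBA2, with overlapping libraries, HBZ (142 ± 16.3) before HBA1, and HBE1 (9.25 ± 4.72) before HBD.

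Within the alpha-like genes the embryonic share was lower, and the adult share higher, in treated cells. HBZ made up 66.4% ± 0.77 of the summed alpha-like counts per kilobase in untreated cells, 42.7% ± 3.3 at 0.15 µM, 34.6% ± 5.3 at 0.25 µM, then 22.3% ± 4.0 at 0.5 µM and 24.9% ± 2.6 at 1 µM (SD, n = 3). The summed share of HBA1 and HBA2 was 27.0% ± 1.1, 45.9% ± 3.7, 54.4% ± 5.2, 69.9% ± 3.7 and 69.2% ± 0.33. Neither measure overlapped between untreated and treated libraries at any dose, and the exact permutation test over the 5 groups gave p = 6.4e-06 for HBZ and 5.0e-06 for the alpha genes (adjusted p = 2.9e-05 for both). Each dose against untreated gave a two-sided exact permutation p of 0.1 for both measures (adjusted p = 0.129). In the fit of all 15 libraries neither alpha gene was called higher at any dose: HBA1 was called lower from 0.25 µM up and HBA2 was not called. Under some alternatives HBA2 was called higher at 0.15 µM, as given above. HBQ1 held 6.55% ± 1.0 in untreated cells, 11.4% ± 0.96 at 0.15 µM, 11.0% ± 1.9 at 0.25 µM, then 7.74% ± 2.6 at 0.5 µM and 5.95% ± 2.7 at 1 µM (exact permutation p = 0.023 over the 5 groups). Against untreated cells its two-sided exact permutation p was 0.1, 0.1, 0.6 and 0.7 in order of dose.

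Among the beta-like genes, HBG1 and HBG2 held 97.2% ± 0.37 of the counts per kilobase in untreated cells and 99.1% ± 0.32 at 1 µM, while HBD and HBB together held 2.77% ± 0.35 and 0.75% ± 0.24 (SD, n = 3). The exact permutation tests over the 5 groups gave p = 0.0052 and 0.0019. Against untreated cells, the two-sided exact permutation p for the gamma share was 0.7, 0.6, 0.1 and 0.1 in order of dose. For the share of HBD and HBB it was 0.7, 0.5, 0.1 and 0.1. Divided by the bases free of other genes, the difference in gamma share from untreated cells was -0.10 percentage points at 0.5 µM (against 1.83) and 0.03 at 1 µM (against 1.87), so its direction for HBG1 and HBG2 depended on the length used. The ratio of alpha-like to beta-like counts per kilobase was 2.29 ± 0.14 in untreated cells, 1.83 ± 0.10 at 0.15 µM, 1.05 ± 0.18 at 0.25 µM, then 0.82 ± 0.22 at 0.5 µM and 0.98 ± 0.35 at 1 µM, with no overlap between treated and untreated libraries (exact permutation p = 0.00018 over the 5 groups). For the ratio each dose against untreated gave a two-sided exact permutation p of 0.1 (adjusted p = 0.129). Per kilobase of free bases the ratio was 0.89 ± 0.040 in untreated cells and 0.35 ± 0.13 at 1 µM, so that which family exceeded the other in untreated cells depended on the length used, while the ratio was lower with treatment by either. The beta-like shares and the ratio hold HBE1 only at its few assigned counts, a poor measure of epsilon globin mRNA. They describe assigned fragments and not the full make-up of the family.

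All 10 genes together took 0.155% ± 0.0044 of the counts of an untreated library, 0.0990% ± 0.014 at 0.15 µM, 0.0745% ± 0.025 at 0.25 µM, then 0.0460% ± 0.018 at 0.5 µM and 0.0561% ± 0.012 at 1 µM (SD, n = 3). No treated library reached the lowest untreated one (two-sided exact permutation p = 0.1 for each dose, exact permutation p = 0.00038 over the 5 groups, adjusted p = 0.00087). With the third replicates at 0.25 and 0.5 µM left out, these doses gave 0.0885% and 0.0563% (n = 2). The HBZ share was then 37.5% and 24.6%, the share of HBA1 and HBA2 51.4% and 68.1%, the HBA2 share of both copies 54.8% and 60.7%, and the HBG2 share 73.3% and 62.3%. The gamma share of beta-like genes was 98.2% and 99.2%, and the ratio of alpha-like to beta-like 1.07 and 0.87.

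**Figure D4:**
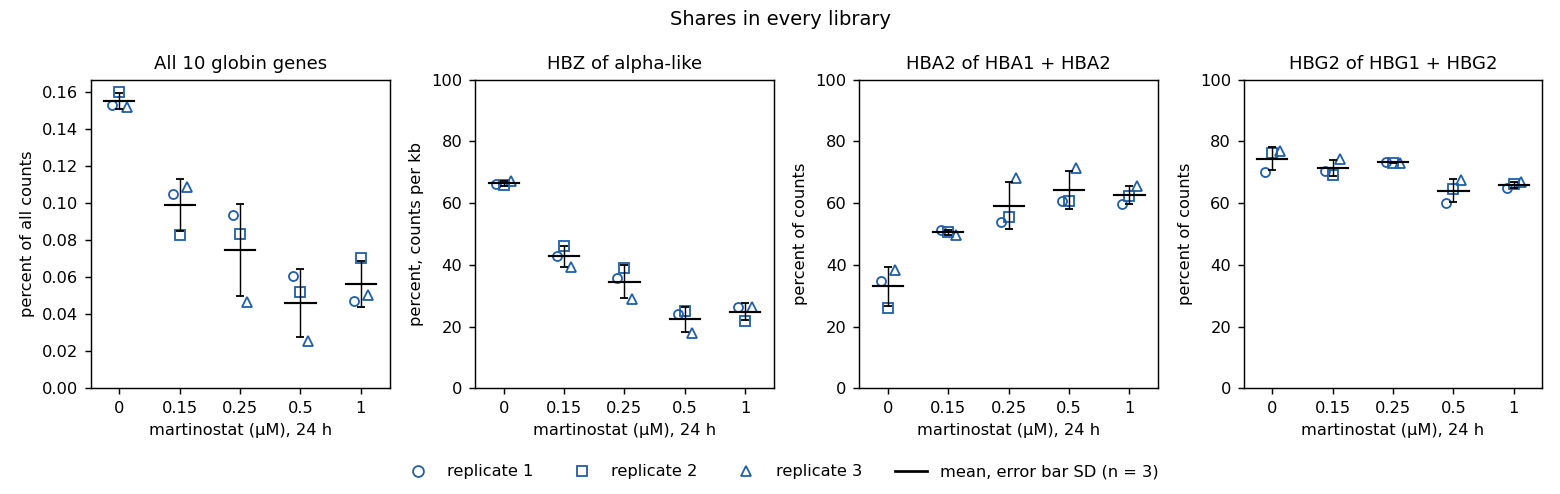
From left to right, the percent of all counts taken by the 10 globin genes, the share of HBZ among the alpha-like genes (counts per kilobase), of HBA2 in the counts of HBA1 and HBA2, and of HBG2 in the counts of HBG1 and HBG2, against dose, with one point per library, the mean and the SD of 3 libraries. HBZ goes from 66.4% to 24.9% and HBA2 from 33% to 62.5%, with no overlap between untreated and 1 µM libraries.

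Between neighboring doses, calls were made in the step from 0.25 to 0.5 µM and in no other, although the median log2 fold change of the 9 genes was -0.47 from 0.15 to 0.25 µM and -0.51 from 0.25 to 0.5 µM. From 0.15 to 0.25 µM edgeR called 0 of the 9 genes (2 lower at an unadjusted p below 0.05, 0 by DESeq2, 0 by limma), against 12.3% of all genes (7.32% lower and 4.96% higher), and 1 lower once the third replicates at 0.25 and 0.5 µM were left out. From 0.25 to 0.5 µM it called HBQ1 (log2 fold change -1.24 ± 0.43, adjusted p = 0.043) and HBD (-2.09 ± 0.23, adjusted p = 1.6e-06) lower, against 30.4% of all genes called (16% lower and 14.4% higher). The HBQ1 call was lost without replicate 1 (-0.92) or 2 (-1.2) at 0.25 µM, without replicate 2 (-1.17) or 3 (-0.91) at 0.5 µM and without the third replicates of these doses together (-1.2). Libraries of the same number deviated together at these 2 doses, and with the replicate as a block in these 6 libraries alone, edgeR called 6 of the 9 lower, against 46.1% of 21562 genes called in that fit and 23.5% called lower. These were HBZ (-1.38 ± 0.12, adjusted p = 2.6e-07), HBG2 (-0.54 ± 0.092, 0.00021), HBA1 (-0.56 ± 0.12, 0.0012), HBQ1 (-1.29 ± 0.13, 1.6e-06), HBD (-2.11 ± 0.26, 1.0e-05) and HBB (-1.43 ± 0.48, 0.024), whereas HBA2, HBG1 and HBE1 were not called. The unblocked count went from 2 to 4 without replicate 3 at 0.25 µM, and to 1 without replicate 1 or 2 at 0.25 µM or replicate 3 at 0.5 µM.

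From 0.5 to 1 µM none of the 9 genes was called by edgeR, DESeq2 or limma, with 0 at an unadjusted p below 0.05 in edgeR, and 0 of all 23711 genes were called either by edgeR (372 at an unadjusted p below 0.05) or by DESeq2. Between 0.15 and 1 µM HBZ (-1.98 ± 0.47, adjusted p = 0.0040), HBQ1 (-2.15 ± 0.44, 0.0013) and HBD (-2.46 ± 0.23, 7.5e-08) were lower, against 44.5% of all genes called (23.1% lower and 21.5% higher). Without the third replicates at 0.25 and 0.5 µM, 5 genes were lower there, HBA1 and HBB being the others. That count too stands without the share of all genes called in its fit.

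Regulators of the globin genes were followed as a list of 20, all of them tested. From the lowest dose to the highest, 5, 3, 1 and 1 of them were higher and 8, 10, 16 and 17 lower, and the median log2 fold change of the list was -0.27, -0.67, -2.11 and -2.08. Among all tested genes 31.9%, 37.4%, 39.4% and 38.8% were higher and 19.4%, 24.8%, 27.6% and 27.5% lower. KLF1, the erythroid factor that binds the CACCC box of the beta globin promoter, went from 406 ± 31.2 CPM (SD, n = 3) without the drug to 3.57 ± 0.45 CPM at 1 µM. The log2 fold change of KLF1 was -1.14 ± 0.20, -3.04 ± 0.21, -7.18 ± 0.26 and -6.83 ± 0.26 (SE) from the lowest dose up, called at every dose (edgeR adjusted p = 1.4e-13 at 1 µM). GATA1, the factor that directs erythroid transcription, was not called at 0.15 µM (-0.07 ± 0.15). At that dose HBZ was called lower, as was HBD, though HBD not under every alternative. At the higher doses GATA1 was lower by 0.92 ± 0.15, 4.4 ± 0.18 and 4.12 ± 0.17, in order of dose. All doses were sampled after the same time, so an order in time between GATA1 and the globin genes was not tested. Whether the globin genes depended on GATA1 here was not tested either. LMO2, which bridges GATA1 and TAL1 in one complex, fell by 5.09 ± 0.16 at 1 µM, from 168 ± 7.82 to 4.92 ± 0.074 CPM. BCL11A, the silencer of the gamma genes, was the only one of the list called higher at 0.5 and 1 µM, from 0.183 ± 0.087 CPM untreated (14 counts in 3 libraries) to 3.72 ± 0.38 CPM at 1 µM (log2 fold change 4.31 ± 0.36, edgeR adjusted p = 4.6e-09).

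**Figure D5:**
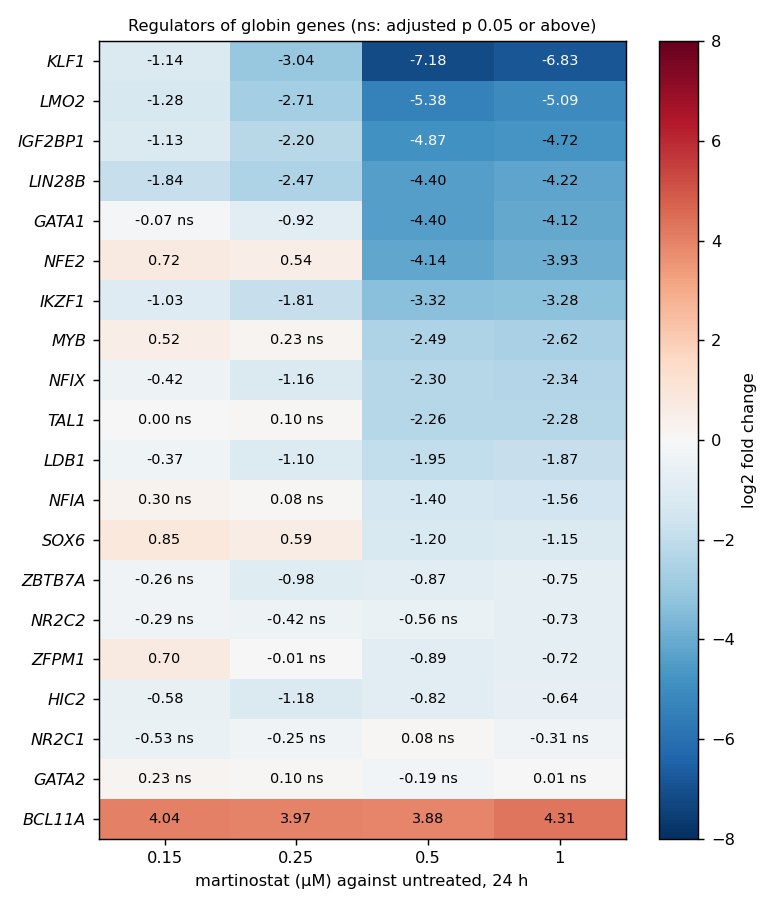
Log2 fold change against untreated cells of 20 regulators of globin genes (rows, sorted by the value at 1 µM) at 4 doses (columns), in blue for lower and red for higher, with ns for an adjusted p of 0.05 or above. KLF1, LMO2 and GATA1 are among the 5 lowest at 1 µM (-6.83, -5.09 and -4.12), and BCL11A is the gene in red throughout.

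Genes of heme synthesis, which supplies the prosthetic group of hemoglobin, were mostly lower at 0.5 and 1 µM and moved both ways at 0.15 µM. Of 12 genes 5 were lower and 2 higher at 0.15 µM, 7 and 1 at 0.25 µM, and 11 and 1 at both 0.5 and 1 µM, with a median log2 fold change of -1.42 at 1 µM. Among all tested genes 19.4% were lower and 31.9% higher at 0.15 µM, and 27.5% and 38.8% at 1 µM. ALAS2, the erythroid enzyme of the first step, went from 206 ± 16.8 to 31.7 ± 2.81 CPM at 1 µM (SD, n = 3; -2.70 ± 0.24, edgeR adjusted p = 1.0e-08). ALAD, the enzyme of the second step, was the one gene called higher at 1 µM, from 25.8 ± 3.00 to 109 ± 5.33 CPM (2.08 ± 0.16).

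Of 7 genes for globin stability and translational control, 6 were lower and 0 higher at 1 µM, against 27.5% and 38.8% of all tested genes. By edgeR 0 were called higher at the other doses too. AHSP, the chaperone of free alpha chains, had 140 counts over 3 untreated libraries and 6 over those at 1 µM, and its log2 fold change was -1.71 ± 0.75 (not called), -2.70 ± 0.80, -5.08 ± 1.0 and -4.64 ± 0.95 (SE; edgeR adjusted p of 0.065, 0.0065, 0.00023 and 0.00031). HSPA8, a heat shock cognate chaperone, went from 5363 ± 395 to 1329 ± 64.3 CPM at 1 µM (-2.01 ± 0.20). Among 7 further members of the globin family and their transcribed relatives, 5 were tested at 1 µM, with 3 higher and 1 lower. HBBP1, a pseudogene between HBD and HBG1, fell by 1.2 ± 0.30 from 2.60 to 1.13 CPM. The myoglobin gene MB had 0 counts in the untreated libraries and 56 over those at 1 µM, and the androglobin gene ADGB 0 and 15.

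Genes beside the clusters did not share one direction. For comparison, 38.8% of all tested genes were higher and 27.5% lower at 1 µM. Of 11 genes around the alpha cluster 3 were higher and 6 lower at 1 µM. POLR3K went from 101 ± 8.32 to 23.6 ± 2.13 CPM (-2.10 ± 0.19) and ARHGDIG from 1.79 ± 0.15 to 0.593 ± 0.19 CPM (-1.59 ± 0.56), whereas RHBDF1 rose from 6.70 ± 0.26 to 22.4 ± 2.31 CPM (1.74 ± 0.18). RGS11, a regulator of G protein signaling, had 0 counts over the 3 untreated libraries and 65 over those at 1 µM. Of 12 genes around the beta cluster 11 were tested, with 3 higher and 1 lower at 1 µM. The odorant receptor gene OR51B4, upstream of HBE1, rose from 8.95 ± 0.53 to 23.1 ± 2.57 CPM (1.37 ± 0.19) and TRIM6 from 4.56 ± 0.70 to 13.9 ± 0.20 CPM (1.60 ± 0.19). RRM1, a subunit of ribonucleotide reductase, fell from 307 ± 32.9 to 99.5 ± 7.36 CPM (-1.63 ± 0.20; all SD, n = 3, and SE for log2 fold changes).

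The genes outside the family whose centered log2 CPM followed a globin gene most closely over the 15 libraries were sought by root mean square difference among 10118 genes of at least 10 CPM. For HBZ these were SRM (0.33), IFITM1 (0.34) and PKP3 (0.39), against an SD of HBZ itself of 1.62 on the log2 scale. For the sum of HBA1 and HBA2 (SD 0.63) they were PIGT (0.18), CENPW (0.19) and RPL24P8 (0.21), and for that of HBG1 and HBG2 (SD 0.60) APRT, RAB1B and NDUFB9 (each 0.15). For HBE1 (SD 0.30), whose few counts leave little pattern, they were NUB1 (0.17), INTS4 (0.17) and SCRN3 (0.18). The points share libraries and scaling, so these values are descriptions.

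Of the 10 genes, the RefSeq promoter table matched HBD and HBM. The upstream sequence is given of HBD, the gene whose doses separated best among the beta-like genes. The RefSeq window of 250 bases before its start site lies at chr11:5234484-5234733 in GRCh38.p14, minus strand. Capitals mark matches, on either strand, to the motif GATA, to the box CACCC, to the box CCAAT and to the element ATAAA.
HBD upstream: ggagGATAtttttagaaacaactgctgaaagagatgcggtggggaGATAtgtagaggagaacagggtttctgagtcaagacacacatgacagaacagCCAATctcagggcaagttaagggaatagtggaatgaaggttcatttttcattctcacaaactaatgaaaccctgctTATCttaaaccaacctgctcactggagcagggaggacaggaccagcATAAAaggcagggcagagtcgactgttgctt
GATA was found at 3 places, at -246, -205 and -77 from the start site, the last of them on the opposite strand and so printed as TATC. The box CCAAT began at -153. The element ATAAA began at -31. CACCC was not among the letters of this window. GATA occurs in 49.7% of 35116 RefSeq windows of 300 bases around start sites, CACCC in 59.9%, CCAAT in 34.6% and ATAAA in 34.9%. The matches are descriptions of letters and not of binding.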

How the data were processed

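K562 cells were sequenced as poly(A)-selected, directional mRNA libraries, 3 per group and 15 in all. The counts deposited by the authors are whole, unnormalized fragment counts per Ensembl gene. Per the submitters' processing notes and the methods, reads were trimmed with Trim Galore 0.6.10, aligned to hg38 with HISAT2 2.2.1, handled with SAMtools 1.21 and counted with featureCounts 1.5.3, with GENCODE release 38 as the annotation. How fragments on several genes were assigned, and whether those on several loci or on the opposite strand were counted, is not given in the sources used here. The authors also deposited FPKM values per library, whose implied gene lengths equal the genomic span with introns, so they were used only in alternatives.

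Genes were named from GENCODE release 44, which matched 99.7% of identifiers. Filtering on low counts, TMM scaling and robust quasi-likelihood fits on 15 libraries were made in edgeR 4.0.16 (R 4.3.3), without a block, and adjusted p-values over 23711 genes. DESeq2 1.42.0 and limma 3.58.1 on log2(FPKM + 1) served as alternatives, beside other scalings, filters, a replicate block and omission of each library. Fold changes of limma are on that log2 scale and understate low genes. On simulated counts the procedure was checked before use. Shares and ratios were computed on counts per kilobase of canonical transcript and tested by exact permutation (SciPy), two-sided, in 36 comparisons with untreated cells and 9 over the 5 groups. The copy shares, the test over 5 groups, the levels per free base, the alternatives for summed copies, the block in 2 doses alone and the omission of the third replicates at 0.25 and 0.5 µM were added after the values were seen.

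The members and gene lists were chosen with earlier results of these data known. All 10 globin genes are named. From every other list at most the 2 highest and 2 lowest called genes at 1 µM are named, and AHSP, KLF1 and GATA1 in any case. One gene that this rule would name is not reported here. Marker genes are named where they had 0 counts or to give their direction, after their values were seen. Replicate numbers were checked by correlating deviations from group means. Only at 0.25 and 0.5 µM did all 3 pairs exceed 0.1 (0.41, 0.42 and 0.71), so the numbers were taken as pairing these 2 doses on that ground. No 2 libraries agreed within sampling noise. Library size limits HBB, HBE1 and HBM most.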

Additional observations from a re-analysis of the deposited data

How the results depend on the processing

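HBZ kept its direction and call at all 4 doses, HBA1 and HBD at 0.25, 0.5 and 1 µM, and HBQ1 and HBB at 0.5 and 1 µM, under every alternative in which they were tested. Genes called lower at 0.15 µM numbered 2, but 1 by library totals, by TMM scaling on genes at or above 10 CPM and by limma on FPKM, and 5 when only the libraries compared were fitted. Genes called higher there numbered 0, but 1 (HBA2) with those 4 settings and with the third replicates at 0.25 and 0.5 µM left out. At 0.5 µM 0 were higher, but 1 (HBE1) with RLE size factors, library totals, TMM scaling on genes at or above 10 CPM, only the libraries compared, or DESeq2. At 1 µM 1 was higher, but 0 without a filter, with at least 10 counts in every library, with only the libraries compared, with limma, with the replicate block or with the third replicates at 0.25 and 0.5 µM left out. From 0.15 to 0.25 µM 0 were lower, but 1 without them. From 0.25 to 0.5 µM 2 were lower, but 4 by library totals, DESeq2 or limma, 1 without a filter or with only the libraries compared, and 6 with the replicate block in those libraries alone. From 0.15 to 1 µM 3 were lower, but 5 with only the libraries compared or without the third replicates. The replicate block over all 15 libraries lost the HBE1 call at 1 µM (1.54), called HBZ lower from 0.25 to 0.5 µM (-1.29) and the gamma sum lower at 1 µM (-0.85), and changed no other call of a gene or sum reported under it. The counts under these alternatives are given without the share of all genes called in the same fit. A setting that calls more of all genes therefore cannot be told apart from a change in the globin genes. The causes were not tested.

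With single libraries left out, the counts ranged from 1 to 2 lower at 0.15 µM, 3 to 5 lower at 0.25 µM and 5 to 6 lower at 0.5 and at 1 µM. They ranged from 0 to 1 higher at 0.5 and at 1 µM, and from 1 to 4 lower from 0.25 to 0.5 µM. The log2 fold changes that turned sign ranged from -0.028 to 0.79 for HBE1 at 0.15 µM, from -0.23 to 0.12, -0.51 to 0.066 and -0.028 to 0.19 for HBA2 at 0.25, 0.5 and 1 µM, and from -0.43 to 0.15 for HBA2 and -0.33 to 0.55 for HBG1 from 0.25 to 0.5 µM. For HBG1 from 0.15 to 1 µM the range was -0.29 to 0.32. Shares that turned, in percentage points from untreated, ranged from -2.14 to 0.24 for HBQ1 at 1 µM, -0.33 to 0.080 and -0.039 to 1.01 for HBG1 + HBG2 at 0.15 and 0.25 µM, and -0.11 to 0.29 for HBD + HBB at 0.15 µM.

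Among the other alternatives, HBA2 turned positive at 0.25 µM (0.43 by library totals, 0.33 by TMM scaling on genes at or above 10 CPM, 0.18 with at least 10 counts in every library, 0.42 by limma, 0.13 without the third replicates) and at 0.5 µM (0.073, 0.13, 0.0044, 0.023 and 0.10 in the same order). HBQ1 at 0.15 µM was 0.14 by library totals, 0.046 by TMM scaling on genes at or above 10 CPM and 0.13 by limma, HBB at 0.25 µM was 0.0013 and 0.0021 by library totals and limma, and HBG1 from 0.25 to 0.5 µM was -0.066 by limma. Library totals moved the median log2 fold change of all genes at 1 µM from 0.32 to 0.67. On deposited FPKM, which divide by genomic span, the HBQ1 share turned to -0.39 and -7.02 at 0.25 and 0.5 µM, the HBG1 + HBG2 share to 0.15 and the HBD + HBB share to -0.15 at 0.15 µM, and the alpha to beta ratio to 0.66 at 0.15 µM. Without division by length or per base free of other genes the HBQ1 share at 1 µM was 0.21 and 0.16, and per free base the HBG1 + HBG2 share was -0.13 and -0.10 at 0.25 and 0.5 µM. The sum of HBA1 and HBA2 at 0.15 µM turned to 0.12 by library totals and 0.025 by TMM scaling on genes at or above 10 CPM. Besides the losses given in the text, the HBG2 call at 1 µM and the HBQ1 call at 0.25 µM were lost by that scaling, without a filter and with at least 10 counts in every library, the former also with only the libraries compared and the latter by limma, and the calls of the sums (alpha at 0.25 and 1 µM, gamma at 0.5 µM) by the same scaling and both filters, the last also with RLE size factors (-0.93).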
